A study of Homo sapiens with 6 samples.

Results

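The genes described here are 10 that drive the passage from G1 into S phase: the D-type cyclins CCND1, CCND2 and CCND3, the E-type cyclins CCNE1 and CCNE2, cyclin A2 (CCNA2), the cyclin-dependent kinases CDK2, CDK4 and CDK6, and the phosphatase CDC25A. The rule takes them by gene name, and all 10 were found among the 62754 genes of the deposited tables. Poly(A) RNA had been sequenced from HUDEP-2 cells, a human erythroid progenitor line immortalised with doxycycline-controlled E6 and E7 genes of human papillomavirus, whose products act on the p53 and RB proteins. In 3 libraries the cells carried a lentiviral shRNA against MEN1, the gene of the chromatin-bound scaffold protein menin, and in 3 libraries a non-targeting control shRNA. All cells grew with erythropoietin (3 units/ml), the KIT ligand SCF (50 ng/ml), doxycycline (1 µg/ml) and dexamethasone (1e-06 M), were selected with puromycin at 2 µg/ml from 24 h for 48 h, and were collected at 72 h. A single MEN1 hairpin was used, so effects of MEN1 loss and of the hairpin itself cannot be told apart. The labels call the replicates biological without saying what separated them.

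As background, D-type cyclins are the G1 cyclins that respond to growth factors. They bind CDK4 or CDK6, and the complexes phosphorylate RB family proteins, which then release E2F transcription factors. E2F factors in turn switch on the genes of cyclin E, cyclin A and many replication proteins. Cyclin E with CDK2 fires the entry into S phase, cyclin A2 with CDK2 carries the cell through it, and CDC25A removes the inhibitory phosphates that hold CDK2 back. In erythroid precursors cyclin D3 is known to control how many divisions occur before cells leave the cycle, and the fall of CDK6 belongs to normal red cell maturation. The E7 protein that HUDEP-2 cells make binds RB, and its level or activity was not measured here.

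Inferred from coverage, depth ran from 18400000 to 35800000 read pairs per library, and between 13865 and 14361 genes reached 1 TPM, a unit that gives a gene's share of the transcripts in a library, corrected for length and scaled to a sum of 1000000. MEN1 itself was at 6.29, 6.44 and 6.88 TPM under its shRNA versus 41.2, 39.6 and 37.1 TPM in the control, 6.01-fold higher in the control, the direction the labels give. Levels were compared with limma on log2(TPM + 1) over 14294 genes, with Benjamini-Hochberg adjustment and a threshold of 0.05, and all log2 fold changes below are MEN1 shRNA over control shRNA on that scale. Erythroid markers were abundant in every library, and their summed TPM was 98614 to 110754 under the MEN1 shRNA versus 56655 to 62785 in the control. The globin genes held most of that sum: HBB (means 50171 against 30237 TPM), HBA1 (23556 against 12208) and HBA2 (23236 against 11975). Of the 12 erythroid markers, 10 were higher and none lower (10 and 0 at an unadjusted limma p under 0.05), where 22.1% of all genes tested were higher and 31.5% lower. Of 7 megakaryocyte markers 1 passed the filter on low values (ITGA2B, 18.6 against 33.8 TPM), the list summed to 17.0 to 21.6 against 31.9 to 36.7 TPM, and the defining genes PF4 and PPBP were at 0 throughout. Of 10 mast cell and granulocyte markers 5 passed the filter, of which AZU1 did so only through the control libraries, where it was at 1.32 to 2.83 TPM. The mast cell tryptases TPSAB1 (448 against 644 TPM) and TPSB2 (329.8 against 496 TPM) were lower, and the list summed to 778 to 941 against 1171 to 1387 TPM. The tryptases and PRG2 (57.0 against 109 TPM) held nearly all of that sum. The mast cell genes CPA3 (0.331 to 0.835 TPM over all libraries), HDC (0.026 to 0.210) and MS4A2 (0.749 to 2.55) were low in both groups. The granulocyte genes MPO and ELANE did not exceed 0.122 TPM. Of 7 lymphoid markers 2 passed, CD3D (4.40 against 0.397 TPM), which did so only through the MEN1 shRNA libraries, and PTPRC (9.06 against 16.3 TPM), the list summed to 12.34 to 14.99 against 14.99 to 20.19 TPM, and MS4A1 was at 0 throughout. Whether the state of the cells, their share in each cycle phase or RNA per cell underlies a difference in a cyclin was not tested, and in bulk RNA fewer cells of a kind and less RNA per cell cannot be told apart.

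Promoter windows from the RefSeq table (GRCh38.p14) were examined for 6 of the 10 genes, namely CCND3, CCNE1, CCNA2, CDK4, CDK6 and CDC25A. CCND1, CCND2, CCNE2 and CDK2 are named only, and their absence here does not show that RefSeq has no start for them. The 3 windows below belong to the gene with the largest rise, to a kinase whose call did not hold in every processing setting, and to the gene that did not pass the threshold. Each runs over the 250 bases before the start of transcription, 5′ to 3′ on the gene's strand, which is the minus strand for all 3, and the capitals mark motif letters found by search.
CCND3 (chr6:41941809-41942058): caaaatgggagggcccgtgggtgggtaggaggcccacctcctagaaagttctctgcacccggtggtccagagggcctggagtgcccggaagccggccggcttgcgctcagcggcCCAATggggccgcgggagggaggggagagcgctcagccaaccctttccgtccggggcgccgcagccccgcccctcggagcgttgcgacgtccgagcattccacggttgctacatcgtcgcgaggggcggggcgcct
CDK4 (chr12:57752311-57752560): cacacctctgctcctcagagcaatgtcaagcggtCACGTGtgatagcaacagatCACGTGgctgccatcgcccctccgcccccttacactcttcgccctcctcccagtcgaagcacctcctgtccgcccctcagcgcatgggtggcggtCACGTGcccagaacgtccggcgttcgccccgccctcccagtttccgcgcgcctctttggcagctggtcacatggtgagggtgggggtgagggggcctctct
CDC25A (chr3:48188418-48188667): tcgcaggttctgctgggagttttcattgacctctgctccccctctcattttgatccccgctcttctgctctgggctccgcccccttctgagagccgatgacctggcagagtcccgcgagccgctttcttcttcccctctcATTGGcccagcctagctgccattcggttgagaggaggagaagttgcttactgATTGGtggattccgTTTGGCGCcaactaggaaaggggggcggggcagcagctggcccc

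Motifs were sought on both strands of 300-base windows, the 250 bases before the start and 50 after it. The capitals in CCND3 are a CCAAT box, a proximal promoter element, whose first base lies at -136 from the start. CCND3 has 3 RefSeq starts, and the deposited tables are per gene, so they do not tell which start was used. The capitals in CDK4 are 3 copies of CACGTG, the E-box bound by MYC and related factors, beginning at -216, -196 and -101. Those in CDC25A are 1 E2F word (TTTGGCGC at -44) and 2 CCAAT boxes read on the other strand as ATTGG (-110 and -58). Across 35116 promoter windows CACGTG occurred in 7.26%, CCAAT in 34.6%, and any of the E2F words TTTCCCGC, TTTCGCGC, TTTGCCGC and TTTGGCGC in 3.31%. In the other windows, CCNA2 had ATTGG at -56, another CCND3 start had ATTGG at -64, and CDK6 had CACGTG at 31 bases past a start. The remaining CCND3 start, the CCNE1 start and the other CDK6 start had no match to any word sought. The erythroid GATA words AGATAA and TGATAA, present in 16.3% of windows, were found in none of the 6 genes. These are matches of letters, not measured binding.

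All 10 genes passed the filter and were tested. With the MEN1 shRNA, 5 were higher (CCND3, CCNE2, CCNA2, CDK2 and CDK4), 4 were lower (CCND1, CCND2, CCNE1 and CDK6) and CDC25A did not pass the threshold. The background was wide: 7658 of the 14294 genes tested passed (53.6%), 3158 of them higher (22.1%) and 4500 lower (31.5%), so that most expressed genes moved and 9 of 10 past the threshold has to be read against that share. The share called was higher among better expressed genes: with a mean of at least 5 TPM required, which all 10 meet, 6345 of 10188 genes passed. The libraries of the groups did not overlap for 9 of the 10 genes, against 61.8% of all genes tested. A rise of at least 2-fold past the threshold was seen for 2 of the 10, CCND3 and CCNE2, against 4.96% of all genes tested. The median log2 fold change of the 10 was 0.11, beside -0.07 over all genes tested, and the median absolute change was 0.40 beside 0.37. Within both cyclin families with several members, and within the CDK4 and CDK6 pair, paralogs differed in opposite directions.

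**Figure D1:**
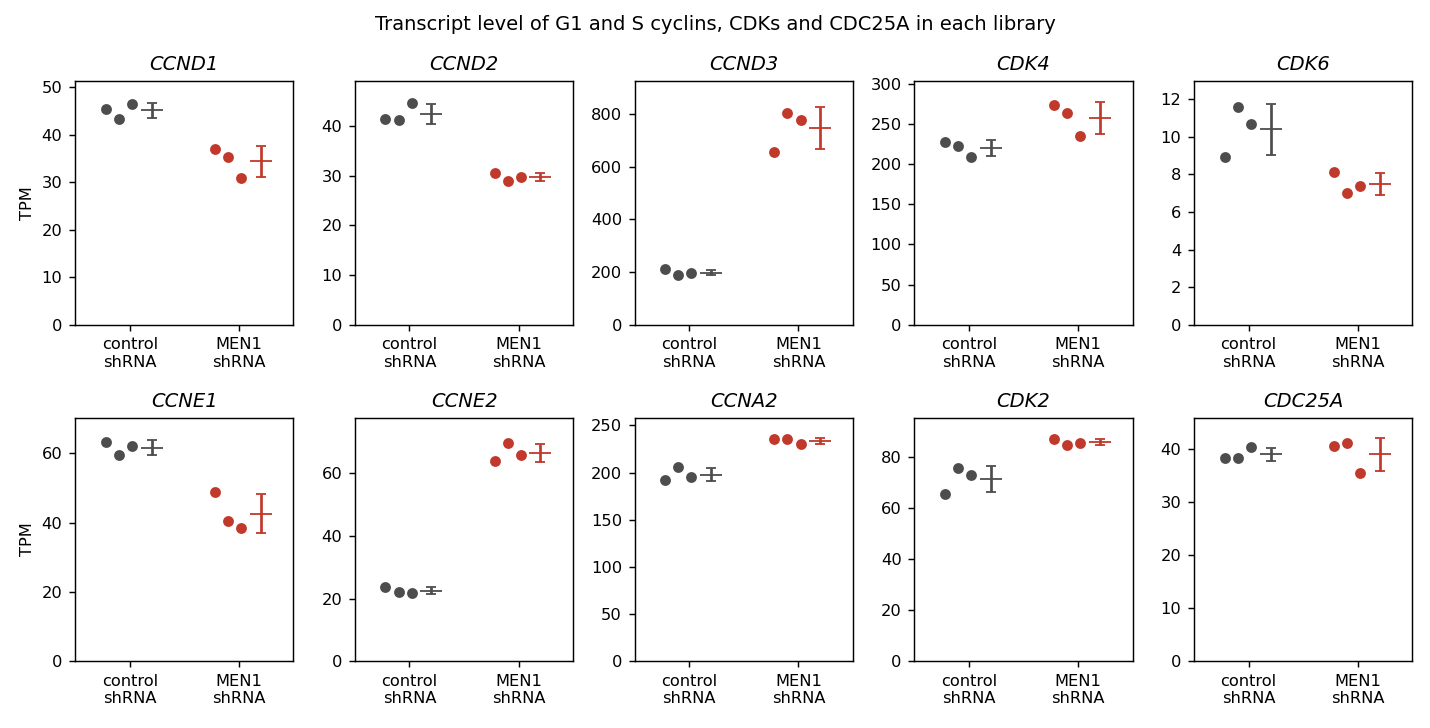
TPM of each of the 10 genes in the 3 control shRNA libraries (grey) and the 3 MEN1 shRNA libraries (red), 1 panel per gene with its own axis from 0; points are libraries, and the bar beside them is the mean with its SD. CCND3 and CCNE2 lie far above the control, CCND1, CCND2, CCNE1 and CDK6 below it, and only the points of CDC25A overlap.

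**Figure D2:**
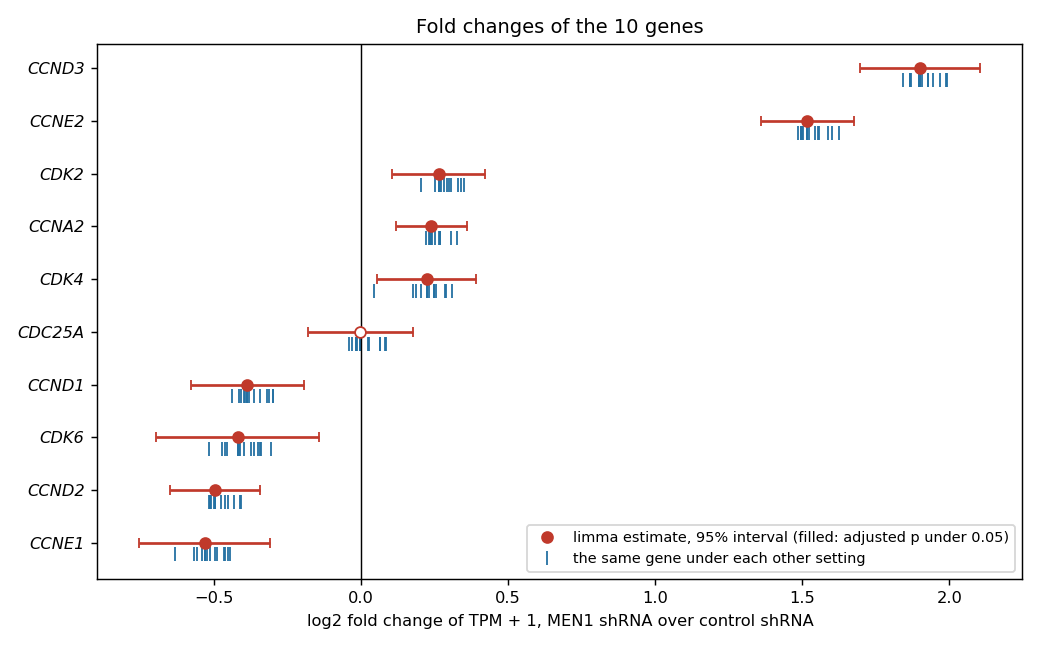
Log2 fold change of TPM + 1 for each gene (x axis), MEN1 shRNA over control shRNA, with its 95% interval; filled red points have an adjusted p under 0.05 in limma, and blue ticks give the same gene under each other processing setting. Ticks of CCND3 (1.84 to 1.99) and CCNE2 (1.49 to 1.62) stay far from 0, and those of CDC25A fall on both sides of it.

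Among the D-type cyclins CCND3 rose and its paralogs fell. CCND3 (ENSG00000112576, chromosome 6, 41934934 to 42050357, minus strand, GRCh38) was at 655, 805 and 778 TPM under the MEN1 shRNA versus 210.0, 188 and 197 TPM in the control. Every MEN1 shRNA library lay far above every control library. The means were 746 ± 79.7 and 198 ± 11.1 TPM (SD, n = 3 each), a 3.76-fold difference. The log2 fold change was 1.90 (SE 0.0875, limma adjusted p = 1.7e-05), which ranked 140 from the highest among the 14294 genes tested. The 17 other settings gave values between 1.84 and 1.99.

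CCND1 (ENSG00000110092, chromosome 11, 69641156 to 69654474, plus strand), the D-type cyclin most often amplified in tumours, was at 37.0, 35.3 and 30.9 TPM under the MEN1 shRNA versus 45.5, 43.4 and 46.5 TPM in the control. The groups did not overlap, and the highest MEN1 shRNA library was the closest to the control. The log2 fold change was -0.39 (SE 0.0823, limma adjusted p = 0.00546). CCND2 (ENSG00000118971, chromosome 12, 4269771 to 4305353, plus strand), a D-type cyclin known as a target of MYC and of cytokine signalling, was at 30.5, 28.9 and 29.8 TPM against 41.4, 41.2 and 44.6 TPM. These libraries were tight within each group and clearly apart between them, with a log2 fold change of -0.50 (SE 0.0655, limma adjusted p = 0.000539). CCND1 and CCND2 remained past the threshold under all 17 other settings, at -0.44 to -0.30 and -0.52 to -0.41.

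The D-type cyclin total followed CCND3. The summed TPM of the 3 genes was 723, 869 and 838 under the MEN1 shRNA versus 297, 273 and 288 in the control, that is 809.9 ± 77.2 against 286 ± 12.2 (SD, n = 3 each), a 2.83-fold difference with a log2 fold change of 1.50 (SE 0.0791, limma adjusted p = 2.3e-05). CCND3 made up 90.7%, 92.6% and 92.8% of the D-type total under the MEN1 shRNA versus 70.7%, 69.0% and 68.3% in the control. The share of CCND1 was 4.29% ± 0.749 against 15.8% ± 0.432, and that of CCND2 was 3.70% ± 0.464 against 14.8% ± 0.813 (SD, n = 3 each). The groups did not overlap for any of the 3 shares, and the difference for CCND3, 22.7 percentage points, had an exact permutation p of 0.1 (2-sided), the smallest that 3 against 3 libraries allow.

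The size of these shares differed between TPM and coverage. The deposited coverage, the mean read depth per exonic base, was low for CCND3 relative to its FPKM, the length-corrected value that TPM is made from. The ratio of the 2 was 0.0708 to 0.0763 of the ratio in single-transcript genes, and GENCODE v29 lists 23 CCND3 transcripts. Only CCNA2 was at 1.00, and the rest of the 10 genes lay between CCND3 and CCNA2, up to 0.853 (CCND1, control replicate 3). For CDK4 the value differed between libraries, from 0.368 (MEN1 shRNA replicate 3) to 0.536 (control replicate 1). The part of isoforms in this ratio was not tested. With coverage scaled for depth in place of TPM, CCND3 was at 49.9, 61.4 and 59.1 against 15.1, 13.3 and 14.0, so its rise had much the same size (log2 fold change 1.93, limma adjusted p = 0.000115), while that of the D-type total was 0.41 (limma adjusted p = 0.00116) and the share difference of CCND3 was 37.0 percentage points. On that scale CCND3 was the lowest D-type cyclin in every control library, below CCND1 (35.1 to 39.7) and CCND2 (24.4 to 26.3). Under the MEN1 shRNA it was the highest, above CCND1 (26.0 to 30.1) and CCND2 (16.9 to 17.9). The change of CCND3 thus held on either scale, and its level beside other genes did not.

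Of the catalytic partners of the D-type cyclins, CDK4 was higher and CDK6 lower, and neither call held in every setting. CDK4 (ENSG00000135446, chromosome 12, 57747727 to 57756013, minus strand), the main partner in these libraries by level, was at 274, 263 and 235 TPM under the MEN1 shRNA versus 228, 223 and 209 TPM in the control. The groups were separate by a narrow gap, since the lowest MEN1 shRNA library was close to the highest control library. The means were 257 ± 20.1 and 220.0 ± 9.69 TPM, and the log2 fold change was 0.22 (SE 0.0717, limma adjusted p = 0.0312). This call was lost without MEN1 shRNA replicate 1 (adjusted p = 0.0772) or 2 (0.0910) and without control replicate 2 (0.0662) or 3 (0.0994), in limma with 2 libraries in a group, without the filter on low values (adjusted p = 0.0874), and on the coverage scale, where the log2 fold change was 0.045 (adjusted p = 0.833).

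CDK6 (ENSG00000105810, chromosome 7, 92604921 to 92836573, minus strand), the other D-type cyclin partner, was the lowest of the 10 genes, at 8.14, 6.98 and 7.38 TPM under the MEN1 shRNA versus 8.92, 11.6 and 10.7 TPM in the control. Control replicate 1 lay close to the MEN1 shRNA libraries, though the groups did not overlap. The log2 fold change was -0.42 (95% interval -0.70 to -0.14, limma adjusted p = 0.0195). The call was lost without MEN1 shRNA replicate 2 (adjusted p = 0.0643) or 3 (0.0520) or control replicate 2 (0.0696) or 3 (0.0617), without the filter (0.0527) and with the replicate number as a block (0.0522). The summed TPM of CDK4 and CDK6 was 265 ± 20.4 against 230.4 ± 9.17 (SD, n = 3 each; log2 fold change 0.20, limma adjusted p = 0.0449), and this call too was lost without any single library other than MEN1 shRNA replicate 3. CDK6 made up 2.89%, 2.58% and 3.04% of the pair under the MEN1 shRNA versus 3.77%, 4.95% and 4.87% in the control, groups that did not overlap (difference -1.69 percentage points, exact permutation p = 0.1, 2-sided).

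The E-type cyclins moved in opposite directions. CCNE2 (ENSG00000175305, chromosome 8, 94879770 to 94896678, minus strand) was at 64.1, 69.6 and 65.9 TPM under the MEN1 shRNA versus 23.9, 22.0 and 21.9 TPM in the control. Both groups were tight, and the gap between them was many times their spread. The means of 66.5 ± 2.81 and 22.6 ± 1.10 TPM (SD, n = 3 each) differed 2.95-fold, with a log2 fold change of 1.52 (SE 0.0679, limma adjusted p = 1.6e-05), which ranked 271 from the highest among the genes tested. CCNE1 (ENSG00000105173, chromosome 19, 29811991 to 29824312, plus strand), which encodes the paralogous cyclin E1, was at 48.9, 40.3 and 38.4 TPM against 63.3, 59.3 and 62.2 TPM. It was lower in all 3 MEN1 shRNA libraries, least so in replicate 1, with a log2 fold change of -0.53 (SE 0.0951, limma adjusted p = 0.00237).

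CCNE2 made up 56.7%, 63.3% and 63.2% of the E-type cyclin TPM under the MEN1 shRNA versus 27.4%, 27.1% and 26.0% in the control. In TPM it was the minor E-type cyclin transcript in every control library and the major one in every MEN1 shRNA library, a difference of 34.3 percentage points (exact permutation p = 0.1, 2-sided). Leaving out 1 library in turn gave differences of 33.1 to 36.4 percentage points, and coverage in place of TPM gave 31.5. As coverage scaled for depth, CCNE2 was at 28.5, 29.8 and 28.3 and CCNE1 at 35.8, 28.7 and 25.9 in MEN1 shRNA replicates 1, 2 and 3, so CCNE2 was still the lower of the pair in replicate 1. In the control on that scale CCNE2 (9.36 to 9.81) was below CCNE1 (43.6 to 45.4) in every library. The summed E-type TPM was 113, 110.0 and 104 against 87.2, 81.4 and 84.1, a ratio of 1.30 (log2 fold change 0.37, limma adjusted p = 0.00133). On the coverage scale the sum had a log2 fold change of 0.11 and did not pass the threshold (limma adjusted p = 0.196).

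**Figure D3:**
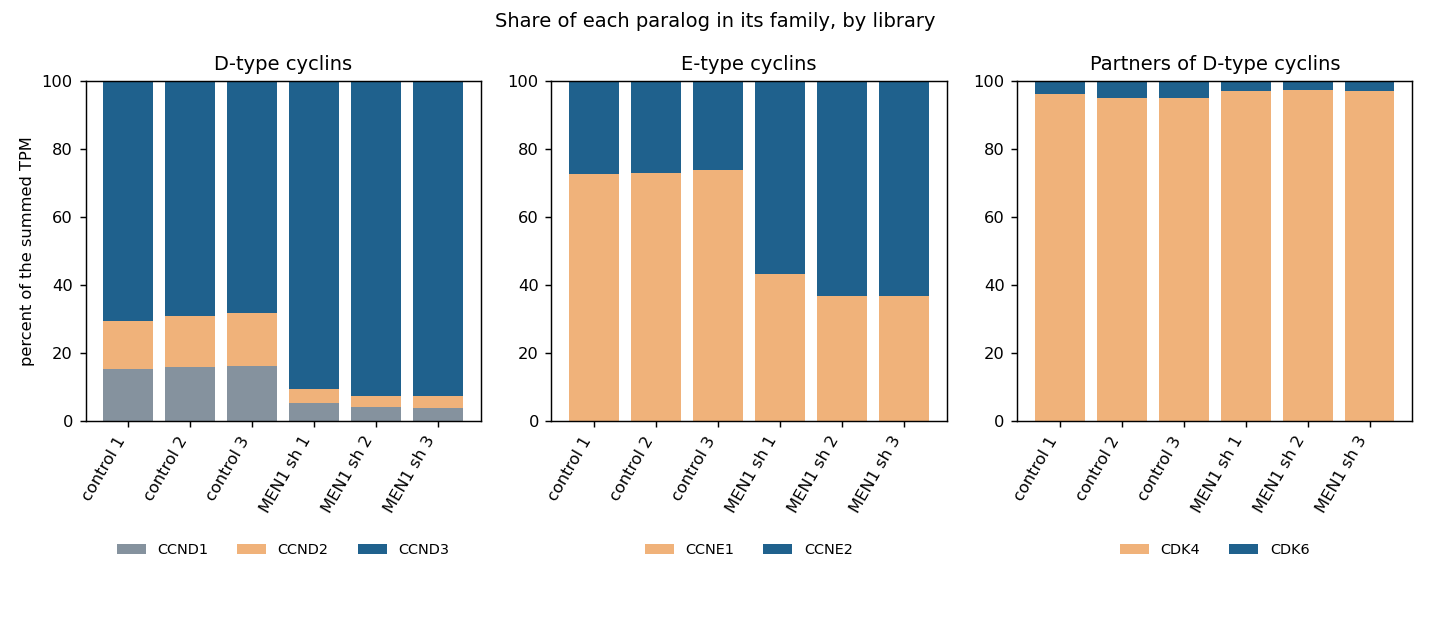
Percent of the summed TPM held by each paralog (y axis) in each of the 6 libraries, for D-type cyclins, E-type cyclins and the CDK4 and CDK6 pair. CCND3 takes 68.3% to 70.7% of the D-type total in the control libraries and 90.7% to 92.8% with the MEN1 shRNA, and CCNE2 goes from 26.0% to 27.4% up to 56.7% to 63.3%. In coverage scaled for depth, not drawn, CCND3 is the lowest D-type cyclin in every control library.

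Cyclin A2, its kinase and CDC25A differed less. CCNA2 (ENSG00000145386, chromosome 4, 121816444 to 121823883, minus strand), whose product works in S phase and G2, was at 236, 235 and 230.0 TPM under the MEN1 shRNA versus 192, 206 and 195 TPM in the control. The groups did not overlap, and the log2 fold change was 0.24 (SE 0.0514, limma adjusted p = 0.00553). CDK2 (ENSG00000123374, chromosome 12, 55966781 to 55972789, plus strand), the kinase shared by the E-type and A-type cyclins, was at 87.4, 84.9 and 85.7 TPM against 65.7, 75.8 and 73.1 TPM. Every MEN1 shRNA library was above every control library, of which replicate 1 was the lowest, and the log2 fold change was 0.26 (SE 0.0679, limma adjusted p = 0.0127). Both genes passed the threshold under all 17 other settings, at 0.22 to 0.33 and 0.21 to 0.35.

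CDC25A (ENSG00000164045, chromosome 3, 48157146 to 48188417, minus strand) was at 40.5, 41.1 and 35.4 TPM under the MEN1 shRNA versus 38.4, 38.2 and 40.4 TPM in the control. The groups overlapped, with the lowest value of all 6 in a MEN1 shRNA library and the highest in another. The means were 39.0 ± 3.13 and 39.0 ± 1.23 TPM (SD, n = 3 each), and the log2 fold change was -0.0018 with a 95% interval of -0.18 to 0.18 (limma adjusted p = 0.987). Its sign changed with the scaling, and no setting brought it past the threshold.

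In the control, CDK4, CCND3 and CCNA2 had the highest levels, with means of 220.0, 198 and 198 TPM, and neighbours in this trio overlapped between libraries. CDK2 (71.5), CCNE1 (61.6), CCND1 (45.1), CCND2 (42.4), CDC25A (39.0), CCNE2 (22.6) and CDK6 (10.4) followed in mean TPM, and of these neighbours only CCND1 and CCND2 overlapped. With the MEN1 shRNA, CCND3 was first at a mean of 746 TPM and overlapped with no other gene. CDK4 (257) and CCNA2 (234) overlapped with each other, CDK2 (86.0) came next, and CCNE2 (66.5) stood above CCNE1 (42.6). CCNE1, CDC25A (39.0) and CCND1 (34.4) overlapped in turn, ahead of CCND2 (29.7) and CDK6 (7.50 TPM). As coverage scaled for depth, CCNA2 was highest, at 192 to 236 over the 6 libraries, CDK4 was at 86.5 to 122 and CCND3 at 13.3 to 61.4, so the top of this order holds for TPM only. Lower places moved too: in coverage CCNE1 (43.6 to 45.4) lay above CDK2 (35.6 to 39.7) in the control, and under the MEN1 shRNA CCNE2 (28.3 to 29.8) overlapped with CCNE1 (25.9 to 35.8) and CDC25A (28.5 to 33.2).

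**Figure D4:**
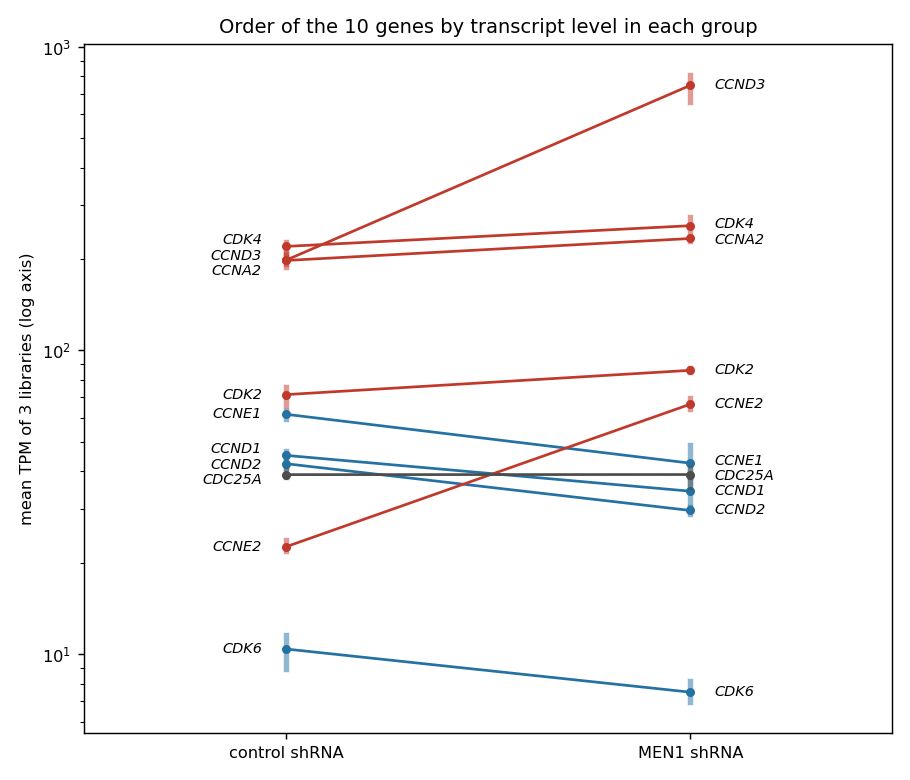
Mean TPM of each of the 10 genes over 3 control shRNA libraries (left) and 3 MEN1 shRNA libraries (right) on a log axis; thick bars span the lowest to the highest library, red lines are genes past the threshold and higher, blue lines lower, and grey is CDC25A. CCND3 goes from 198 to 746 TPM and CCNE2 from 22.6 to 66.5 TPM, crossing the lines of CCNE1, CDC25A, CCND1 and CCND2.

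Some of the 10 genes overlap genes on the opposite strand, and whether strand was used in the quantification is not given in the sources used here. CCNE2 shares 1977 bases with INTS8, an Integrator subunit gene, and 1146 bases with NDUFAF6, a mitochondrial complex assembly gene. INTS8 was at 44.5 to 50.8 TPM with the MEN1 shRNA against 60.1 to 71.2 TPM, opposite in direction to CCNE2, and NDUFAF6 was at 35.2 to 35.6 against 38.6 to 40.3 TPM. CCNA2 shares 578 bases with EXOSC9, an exosome subunit gene, which like CCNA2 was higher (145, 158 and 157 against 101, 113 and 111 TPM). CCND1 shares 1399 bases with LTO1 (16.0 to 18.4 against 18.7 to 22.8 TPM), lower as CCND1 was. The part of these neighbours in the values of the cyclins was not tested. Rows that overlap on the same strand exist only for CCND2, CCND3, CDK4 and CDK6, and none exceeded 0.841 TPM. Adding them could change little and changed no call, and it does not bear on the opposite-strand neighbours.

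For the gene with the largest rise and the gene with the largest fall, the 3 most similar genes were taken over the 6 libraries by the root mean square difference of centred log2(TPM + 1), among 10286 candidates. Closest to CCND3 were PTMS (0.0512), a parathymosin gene, SLC4A1 (0.0549), the band 3 anion exchanger of the red cell membrane, and HEMGN (0.0587), a nuclear protein gene of erythroid cells. Their log2 fold changes were 1.93, 1.93 and 1.91. SLC4A1 was at 402, 441 and 444 TPM under the MEN1 shRNA versus 117, 110 and 109 TPM in the control. Closest to CCNE1 were TMEM109 (0.0306), a membrane protein gene, SF3B4 (0.0319), a splicing factor gene, and DKC1 (0.0321), a pseudouridine synthase gene, with log2 fold changes of -0.53, -0.52 and -0.53. Likeness over 6 libraries in 2 groups mostly reflects the size of the difference between the groups.

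The wider pathway was described through lists of inhibitors, targets and regulators. Among the 7 CDK inhibitors, whose products bind cyclin-CDK complexes or CDK4 and CDK6 alone, 5 were higher, 1 was lower and CDKN1C (1.35 against 1.49 TPM) did not pass, with a median log2 fold change of 1.04 beside -0.07 for all genes. Over all genes tested 53.6% were called, 22.1% higher and 31.5% lower, and the counts of each list below are to be read against these shares. CDKN1A, the p21 gene, was at 12.2, 20.3 and 17.1 TPM under the MEN1 shRNA versus 2.80, 1.82 and 1.84 TPM in the control, with a log2 fold change of 2.46 (limma adjusted p = 7.56e-05), which was 1.69 on the coverage scale. CDKN1B, the p27 gene, was at 67.7, 84.2 and 55.3 against 39.0, 23.7 and 37.3 TPM (1.04, limma adjusted p = 0.00434). These libraries did not overlap for either gene. Of the INK4 genes, CDKN2D (21.7 against 5.81 TPM, log2 fold change 1.73) and CDKN2B (28.3 against 8.25 TPM, 1.66) rose. CDKN2C rose by less (88.9 against 75.1 TPM, 0.24, limma adjusted p = 0.0217), and its call was lost without MEN1 shRNA replicate 2 (adjusted p = 0.0760) or 3 (0.0628), without control replicate 3 (0.0738) or without the filter (0.0514). CDKN2A, which encodes p16 and ARF, was at 244, 261 and 291 against 519, 483 and 302 TPM. Control replicate 3 stood near the MEN1 shRNA libraries, and the log2 fold change of -0.68 (limma adjusted p = 0.0191) lost its call without MEN1 shRNA replicate 1 (0.0595) or 2 (0.0528), without control replicate 1 (0.0604) or 2 (0.0654) or without the filter (0.0859).

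Of 13 RB and E2F genes, 6 were higher and 3 lower, so 9 were called against 53.6% of all genes, with a median log2 fold change of 0.16. E2F2, an activator E2F, was at 48.8 ± 2.41 against 19.1 ± 0.735 TPM (SD, n = 3 each; log2 fold change 1.31, limma adjusted p = 2.36e-05), and E2F7, an atypical repressor E2F, was at 17.0 ± 1.40 against 5.58 ± 0.368 TPM (1.45, 4.09e-05). TFDP2, an E2F partner, rose by a log2 fold change of 0.90 in TPM and 0.47 in coverage, and E2F5, a repressor E2F, had -1.68 in TPM and -0.63 in coverage. Of 17 genes of CDK activation and cyclin turnover, 16 were tested, 4 were higher and 3 lower (median -0.06), a share called below the 53.6% of all genes. SKP2, the ubiquitin ligase subunit that marks p27 and other cycle proteins for degradation, was at 22.3, 12.5 and 14.4 TPM under the MEN1 shRNA versus 47.7, 59.2 and 51.6 TPM in the control (-1.67, limma adjusted p = 0.000308). CDK7, the kinase that activates other CDKs, fell (32.4 against 43.9 TPM). WEE1, which phosphorylates and inhibits CDKs (64.8 against 32.7 TPM), and CKS2, a small CDK-binding protein gene (511 against 381 TPM), rose.

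Genes of replication and mitosis were called in both directions, at shares on either side of the background. Of 20 genes of origin licensing and firing, 4 were higher, 5 lower and 11 did not pass the threshold (median -0.10), again a share called below 53.6%. The GINS subunits GINS1 (14.9 against 38.6 TPM) and GINS4 (27.9 against 50.8 TPM), geminin (GMNN, 107 against 159.8 TPM) and the origin recognition subunit ORC2 (42.5 against 58.3 TPM) fell. Of 18 genes of S-phase synthesis, 8 were higher and 4 lower (median 0.13), beside 22.1% and 31.5% of all genes. The ribonucleotide reductase subunit RRM2 was at 407 ± 15.2 against 241 ± 18.7 TPM (SD, n = 3 each; log2 fold change 0.76, limma adjusted p = 0.000109). The flap endonuclease FEN1 (219.8 against 146 TPM) rose as well, and the DNA polymerase delta subunit POLD1 (63.6 against 109 TPM) fell. Of 14 mitotic genes, 5 were higher and 2 lower (median 0.09), a share called near the 53.6% of all genes. CDK1, the mitotic kinase that also binds cyclin A2, was at 197, 216 and 234 against 125, 132 and 147 TPM. CENPF (152 against 104 TPM) and CCNF (58.6 against 42.6 TPM) rose, and the transcription factor gene FOXM1 (41.2 against 66.4 TPM) fell.

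Of 16 regulators that act upstream of G1 cyclins, 15 were tested, 7 were lower and none higher (7 and 1 at an unadjusted limma p under 0.05), with a median log2 fold change of -0.23, and MYCN was listed at 0. The share called was below the 53.6% of all genes, of which 31.5% were lower. MYC was at 91.9, 63.7 and 66.8 TPM under the MEN1 shRNA versus 227, 239.6 and 231 TPM in the control, a log2 fold change of -1.65 (limma adjusted p = 6.38e-05). MYB, a transcription factor gene of progenitors, was at 106 ± 8.91 against 250.2 ± 11.8 TPM (-1.23), and KIT, the receptor for SCF, at 122 ± 3.47 against 271 ± 18.6 TPM (-1.15; SD, n = 3 each). PIM1, a kinase gene induced by cytokine receptors, was at 187 ± 32.3 against 366.5 ± 13.2 TPM (-0.98, SD, n = 3 each). In these libraries CCND1, CCND2, CCNE1 and CDK6 were lower together with MYC, MYB and KIT. CCND3 and CCNE2, and by less CCNA2, CDK2 and CDK4, were higher together with 10 of the 12 erythroid markers and 5 of the 7 CDK inhibitors. Over 2 groups of 3 libraries such co-movement says only that the genes differ between the same groups.

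**Figure D5:**
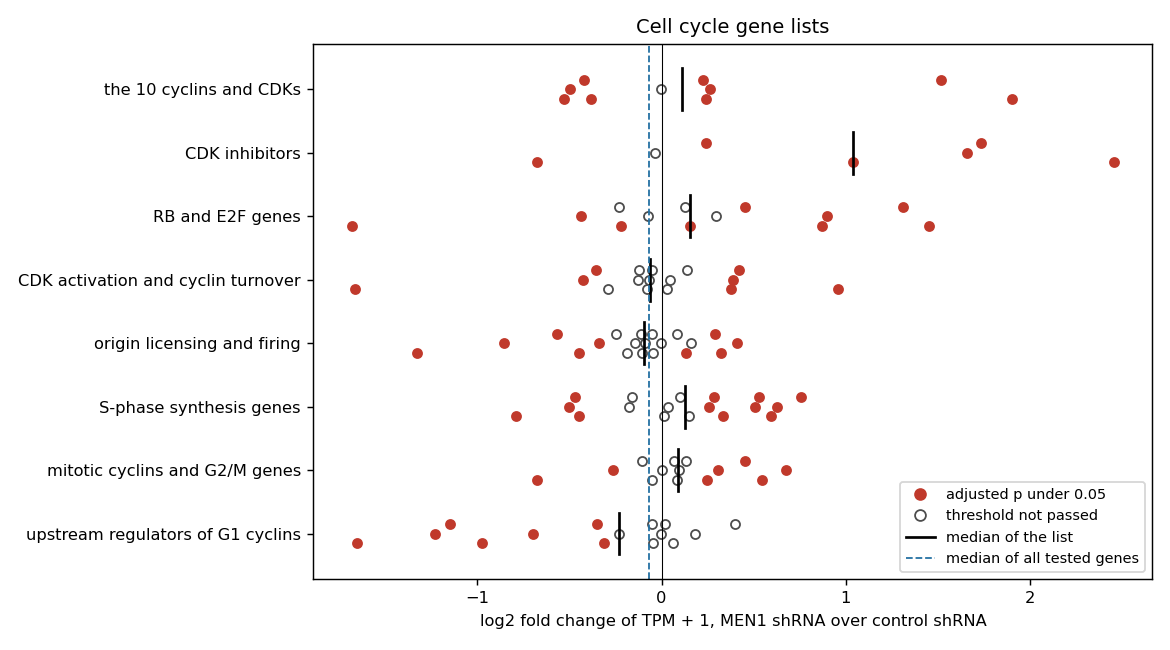
Log2 fold change of TPM + 1 (x axis), MEN1 shRNA over control shRNA, for each tested gene of the 10 described here and of 7 pathway lists; red points have an adjusted p under 0.05 in limma, open points do not, black bars are list medians and the dashed line is the median of all genes tested (-0.07). The CDK inhibitors have the highest median (1.04) and the upstream regulators the lowest (-0.23).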

How the data were processed

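Per the labels' protocols, poly(A) RNA was made into directional libraries. The submitters' processing notes name FastQC, Trimmomatic, STAR 2.7.1a, Picard 2.20.4, StringTie 2.0.4 and hg38, with no role or order. Sources used here do not give the annotation or the use of strand. The deposited TPM values sum to 1000000 per library, and the deposited FPKM values and the deposited coverage (a signal not scaled for depth, per the file headers) stand beside them. In control replicate 2, 2 negative residues near 0 in the deposited values were set to 0. Read counts are not used here. Depth was inferred from the ratio of coverage to FPKM in single-transcript genes and from read pairs of 302 bases, so no counting error per gene is given.

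A gene entered the fit with 1 TPM or above in 3 or more of 6 libraries. The scale was log2(TPM + 1), which understates the change of low genes. The fit was made with limma 3.58.1 in R 4.3.3 (eBayes with trend, 2-sided, Benjamini-Hochberg adjustment over 14294 genes and the 3 sums, threshold 0.05). The step was also run on simulated data with independent noise and few changed genes. Most genes passed in the real libraries, so that run does not check the calls made here. Shares were compared with exact permutation tests in SciPy 1.17.1. Because TPM values are shares, more globin transcript means lower values elsewhere. GENCODE v29 (GRCh38) holds 58261 of the identifiers, 99.9% of them at an overlapping position. The members and the gene lists were chosen with earlier results of these data known. All 10 members are named, and from each pathway list up to 4 genes past the threshold with the largest absolute change (all CDK inhibitors), from each marker list up to 3 of the highest, and the 3 genes most like the largest rise and the largest fall. Marker genes named for values at 0 or low values lie outside this rule. A gene of the S-phase list that the rule names is not reported here. Same-numbered libraries of the groups did not deviate together (correlations 0.017, -0.027 and -0.012), so no pairing was used. Alternatives covered the pseudocount (0.1), the filter (none, or a mean TPM of 5), FPKM, scalings, robust eBayes, the replicate block, overlapping genes, each library left out, and coverage scaled for depth, which was chosen after seeing the data.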

Additional observations from a re-analysis of the deposited data

How the results depend on the processing

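Of the 10 genes, CCND1, CCND2, CCND3, CCNE1, CCNE2, CCNA2 and CDK2 kept their direction and passed the threshold under all 17 alternatives, and CDC25A passed under none. The alternative that added same-strand rows left the log2 fold changes of all but CCND3, CDK4 and CDK6 as they were. Between 7 and 9 of the 10 passed in each alternative, while the count over all genes ran from 6345 (mean TPM of at least 5) to 7675 (FPKM). The CDK4 log2 fold change was 0.22 without the filter (fitted on 35241 genes) and 0.045 on coverage scaled for depth, and 0.18 to 0.29 with 1 library left out. CDK6 was at -0.42 without the filter and with the replicate block, which changed no other call among the 10 genes and called 7012 genes in all, and at -0.52 to -0.34 with 1 library left out. The CDK4 and CDK6 sum was at 0.20 without the filter, 0.0082 on coverage and 0.15 to 0.26 with 1 library left out, and the CCNE1 and CCNE2 sum at 0.11 on coverage. CDC25A turned positive with FPKM (0.029), median-of-ratios scaling (0.084), rescaling without globin and mitochondrial genes (0.064) and quantile normalization (0.081), and ran from -0.040 to 0.065 with 1 library left out. CDKN1C, past the threshold in none of the fits that held it, turned positive with a pseudocount of 0.1 (0.0066), median-of-ratios scaling (0.019) and rescaling (0.0073), and ran from -0.31 to 0.14 with 1 library left out. With coverage in place of TPM the share differences were 37.0 (CCND3) and -2.40 (CDK6) percentage points. HBB, the most abundant transcript, had a log2 fold change of 0.73 and no difference under quantile normalization, which sets the top value equal in all libraries. Causes of the other changes were not tested. Of all genes called, 41.2% were higher, and 49.5% with median-of-ratios scaling, which moved the median of all genes by less than 0.1. With 3 libraries a group, permutation of shares cannot go below 0.1.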
